A study of Mus musculus with 31 samples.

Results

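The genes described here are 8 members of the complement system, chosen by symbol among the 47069 genes measured: C1qa, C1qb and C1qc, which encode the chains of C1q, C3, the receptor genes C3ar1 and C5ar1, Cfp, which encodes properdin, and Cfb, which encodes factor B. They were measured in 31 single cells from right lung lobes of 10 week old mice with the Csf1r-GFP reporter, a green fluorescent protein driven by regulatory sequence of the CSF1 receptor gene that labels monocytes and macrophages. All cells were taken 7 days after a sham operation that opened the chest, and were sorted as CD45+, CSF1R-GFP+ and F4/80+, with Ly6G named without a sign. They form 1 group and no animal is named for any cell, so the group counts as 1 sample: cells are not replicates, no test between groups was possible, and intervals cover counting error over cells only.

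Complement is a cascade of blood and tissue proteins that tags microbes, dying cells and immune complexes for removal. C1q recognises such targets and opens the classical pathway. All pathways meet at C3, whose cleavage gives C3b, which coats the target, and the small peptide C3a; C5 downstream gives C5a. Factor B and properdin build and stabilise the enzyme of the alternative pathway, which amplifies C3 cleavage. The liver makes most of the circulating components, whereas C1q and properdin come largely from myeloid cells, and macrophages and monocytes carry receptors for C3a and C5a.

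A gene was called present in a cell at 1 or more FPKM (fragments per kilobase of transcript, scaled to library size), a level per length that can be compared between genes. The libraries summed to between 120835 and 4059833 expected counts. In 10 libraries nuclear protein-coding genes took 32.7 to 61.4% of counts, and in the other 21 they took 87.4 to 95.6%; the 10 are called low-coding below. The lysozyme gene Lyz2, a marker of monocytes and macrophages, reached 1000 FPKM or more in 20 cells, all among the 21. The one remaining library of the 21, cell F11, held no Lyz2 read. In the 20 cells Lyz2 ran from 1229 to 56145 FPKM with a median of 23257 FPKM, and total counts from 521492 to 4059833. The sort genes Csf1r, Ptprc and Adgre1 were present in 20, 19 and 15 of these 20 cells, and Ly6g, the gene of the Ly6G antigen, in 7.

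Of the 8 members, 7 were present in at least 1 of the 31 cells, where 32.8% of all genes and 51.5% of protein-coding genes were present in at least 1. Within the 20 Lyz2-high cells it was again 7 of 8, against 39.6% of protein-coding genes. Members were present in a median of 7 of the 20 cells, against 0 for all genes and 0 for protein-coding genes. The members were selected with earlier results of these cells known, so these shares describe them and are no evidence about complement genes at large. The low-coding libraries held almost none of them: C5ar1 was present in 2 of the 10, and the other 7 members in 0 of the 10, which allows a share of up to 30%. Lower depth of these libraries, at a median of 373305 counts against 1479639 in the other 21, moved with this absence. With every cell thinned to 120829 counts, all 3 C1q chains had 1 or more reads in 6 cells and C3 in 10. Cfp then had 1 or more reads in 8 cells, against 11 cells at 1 FPKM before thinning. The part of depth in the absence was not tested.

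**Figure D1:**
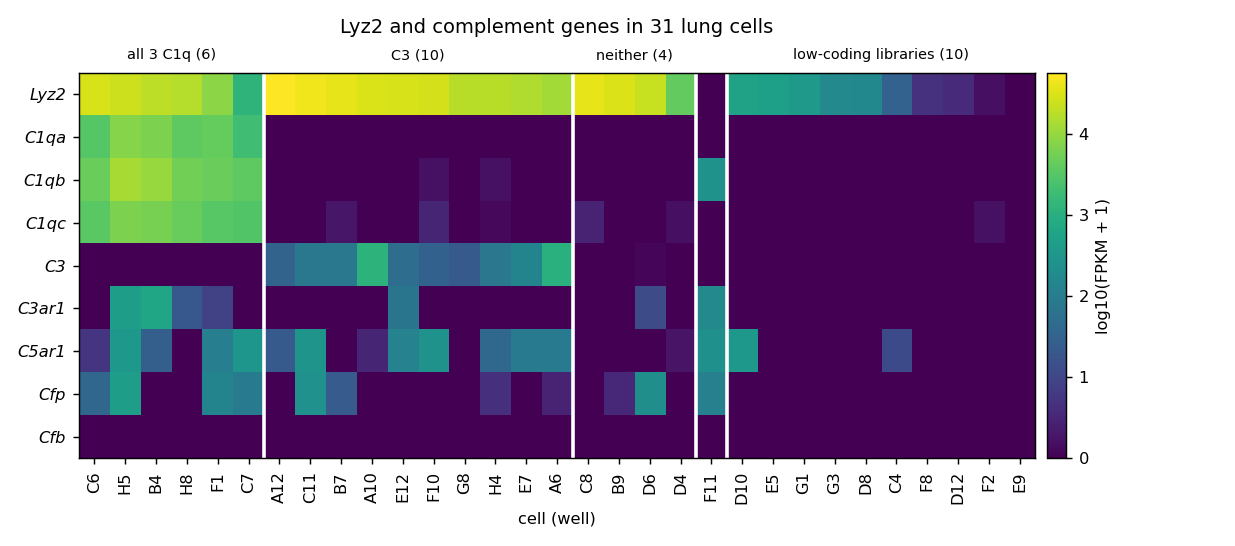
Heat map of log10(FPKM + 1) of Lyz2 and the 8 members, 1 column per cell named by its well. White lines part the 6 cells with all 3 C1q chains, the 10 with C3 and the 4 other Lyz2-high cells. They also part cell F11 without Lyz2 and the 10 low-coding libraries, and each set is ordered by Lyz2. The 6 cells with all 3 chains hold no C3, F10 alone holds both C3 and C1qc at 1 FPKM or more, and Cfb is empty.

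Within the 20 Lyz2-high cells the C1q chain genes were found together or almost not at all, while cell F11 held C1qb alone. C1qa (ENSMUSG00000036887), C1qc (ENSMUSG00000036896) and C1qb (ENSMUSG00000036905) lie side by side on the minus strand of GRCm38 chromosome 4, from 136880129 to 136898803, a stretch of 18.7 kb. The 3 chains assemble into 1 protein, so all are needed in the cell that secretes it. All 3 were present in 6 of the 20 Lyz2-high cells (30%, exact Clopper-Pearson 95% interval 11.9 to 54.3%), which were the cells B4, C6, C7, F1, H5 and H8. They are called C1q cells below.

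Since these genes moved together, the 250 bases before the start of C1qb and C1qc are shown, with that of C3 for contrast, from RefSeq's table on GRCm38.p6, in which 6 of the 8 members were matched by symbol. C1qb is chr4:136886201-136886450, C1qc chr4:136892915-136893164 and C3 chr17:57228137-57228386, all on the minus strand and printed 5′ to 3′ in the gene's direction. Capitals mark AGGAAGT, a core bound by ETS factors such as the myeloid factor PU.1, read here on the other strand as ACTTCCT, and the C/EBP-type motif TTGCGNAA.
C1qb: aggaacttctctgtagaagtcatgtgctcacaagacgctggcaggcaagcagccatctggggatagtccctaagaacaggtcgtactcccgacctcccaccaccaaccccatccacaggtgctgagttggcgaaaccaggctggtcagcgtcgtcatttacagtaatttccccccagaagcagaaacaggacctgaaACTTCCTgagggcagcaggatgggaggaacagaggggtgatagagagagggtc
C1qc: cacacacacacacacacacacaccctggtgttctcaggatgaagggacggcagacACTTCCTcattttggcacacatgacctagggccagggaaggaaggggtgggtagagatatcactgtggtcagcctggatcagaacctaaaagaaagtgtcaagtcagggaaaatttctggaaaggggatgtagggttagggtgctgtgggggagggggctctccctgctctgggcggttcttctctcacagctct
C3: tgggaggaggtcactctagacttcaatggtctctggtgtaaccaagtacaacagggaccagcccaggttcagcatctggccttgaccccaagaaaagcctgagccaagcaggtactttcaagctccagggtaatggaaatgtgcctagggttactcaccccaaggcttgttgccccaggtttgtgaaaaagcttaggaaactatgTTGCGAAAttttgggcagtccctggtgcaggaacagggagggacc
Counted from the RefSeq start, the ETS core stood at -53 to -47 in C1qb and -195 to -189 in C1qc. In C5ar1 (window chr7:16259339-16259588) it stood at -190 to -184 and at -72 to -66. GENCODE places some starts elsewhere: the windows of C1qc, C3ar1 and C5ar1 overlap the GENCODE genes, which reach 136893065, 122856161 and 16259540. Both C5ar1 sites thus lie within the GENCODE gene. The ETS core was found in none of the windows of C3, C3ar1 and Cfp. On either strand it was in 7.69% of all 32851 promoters of the same length. C3 held TTGCGAAA at -45 to -38, a motif in 0.670% of promoters, and none of the other windows searched did. C1qa and Cfb had no window to search. TGCTGA (16.1% of promoters), part of the element bound by Maf factors, was in 4 of the 6 windows (C1qb, C3, C3ar1 and C5ar1), the AP-1 motif TGANTCA (6.75%) and TATAAA (12.4%) in that of C3ar1 alone, and the kappa B motif (0.356%) in none. Both strands were searched, no 2 sites within a member overlapped, and the motifs were chosen with the sequences and the expression in view, so a match is a description only.

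Levels were high in every one of the 6 C1q cells. C1qa ranged from 1946 to 7564 FPKM with a median of 4002 FPKM, C1qb from 3729 to 13306 FPKM with a median of 5064 FPKM, and C1qc from 2931 to 6457 FPKM with a median of 3923 FPKM. Together the 3 genes took 0.802 to 2.43% of all counts of a cell. Cell H5 was highest for each chain and C7 lowest. The spread from the lowest to the highest C1q cell was 3.89-fold for C1qa, 3.57-fold for C1qb and 2.20-fold for C1qc.

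The ratios between the chains spanned 1.67- to 1.89-fold over the 6 cells, somewhat less than the levels. C1qb was the highest chain in 6 of the 6 cells. Its FPKM was 1.11 to 1.92 times that of C1qa (median 1.53) and 1.24 to 2.06 times that of C1qc (median 1.38), and C1qa was 0.664 to 1.26 times C1qc (median 1.01). On the log2(FPKM + 1) scale Pearson's r over the 6 cells was 0.929 for C1qa and C1qb, 0.916 for C1qa and C1qc and 0.976 for C1qb and C1qc, with Spearman's rho of 0.943, 0.829 and 0.943. These are descriptions of 6 cells that were chosen for holding the genes and differ in depth.

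**Figure D2:**
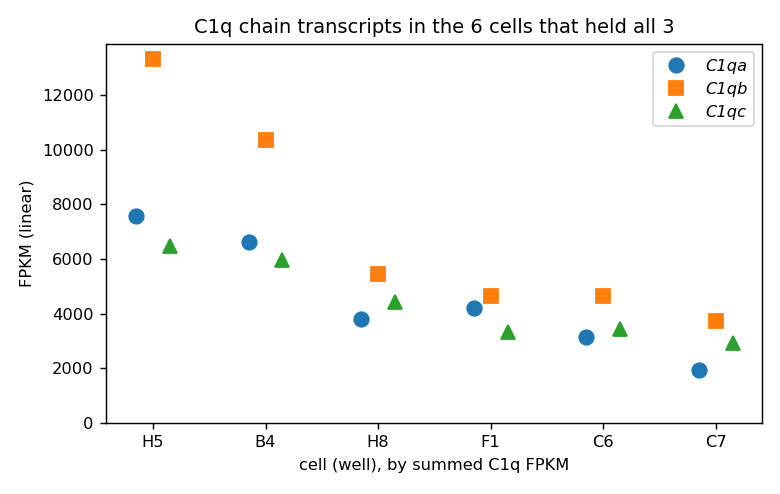
FPKM (linear axis from 0) of C1qa, C1qb and C1qc in the 6 cells that held all 3, ordered by their sum. C1qb was the highest chain in each cell, from 3729 to 13306 FPKM.

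Outside the C1q cells the chains were at or near 0. In the other 14 Lyz2-high cells C1qa had 0 counts in each, C1qb had 1 count in F10 and 2 in H4, and C1qc 1 to 4 counts in 5 cells. The highest value among them was 2.13 FPKM of C1qc, in F10, and C8 at 1.87 FPKM of C1qc was the single other one past 1 FPKM. At the depth of these 14 cells, 3 counts would give 1.0 to 6.7 FPKM of C1qa, 0.949 to 6.37 FPKM of C1qb and 0.839 to 5.63 FPKM of C1qc. No cell lay between these traces and 1946 FPKM except F11, the cell without Lyz2, which had 258 FPKM of C1qb from 257 counts with 0 counts of C1qa and C1qc. F11 also had 50.3 FPKM of the mannose receptor gene Mrc1 from 104 counts, while 8 genes of the interstitial macrophage list had 0 counts. Of the classical monocyte list it had S100a4, at 2855 FPKM from 1010 counts, and no other gene at 1 FPKM. Of the sort genes it had Ptprc at 319 FPKM, with Csf1r at 0.99 FPKM and Adgre1 at 0. By presence of any chain, 9 of the 31 cells and 8 of the 20 counted as positive, which includes these traces in F10 and C8.

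C3 (ENSMUSG00000024164; GRCm38 chromosome 17, 57203970 to 57228136, minus strand) was found in other cells than C1q. It was present in 10 of the 31 cells (32.3%, 16.7 to 51.4%), all of them Lyz2-high, at 20.8 to 1161 FPKM with a median of 76.7 FPKM. These were A6, A10, A12, B7, C11, E7, E12, F10, G8 and H4, called C3 cells below. A10 with 1161 FPKM and A6 with 1035 FPKM stood above the rest, of which E7 was next with 137 FPKM, and G8 was the lowest with 20.8 FPKM from 111 counts. The gap is smaller in counts. As a share of all counts C3 was 4.41 times as high in A10 as in E7 and 2.94 times as high in A6 as in E7, against 8.49 and 7.57 times in FPKM. The deposited counts and FPKM imply a C3 length of 2.58 kb in A10 and 1.93 kb in A6, and of 4.95 to 4.96 kb in the other 8 C3 cells. The single cell with C3 counts outside these 10 was D6, at 0.21 FPKM from 2 counts. The short Mir6978, which overlaps C3, had 0 counts over the 31 cells.

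None of the 6 C1q cells held a C3 count. At the depth of these cells 3 counts would give 0.295 to 1.52 FPKM of C3 at the length implied in A10, and 0.153 to 0.787 FPKM at that in H4, below the lowest C3 cell. With C1qa present in 6 and C3 in 10 of the 20 cells, 3 would hold both if the genes were independent, and 0 did. Under the rule of any chain, F10 with its 2.13 FPKM of C1qc and 29.4 FPKM of C3 held both, and at a minimum of 5 FPKM no cell did. Of the 20 Lyz2-high cells, 17 had either any chain or C3. Of the 3664 genes with a symbol that were present in at least 5 of the 20 cells, C3 among them, 7.07% were in none of the C1q cells. That share includes genes present in fewer cells than C3, which miss 6 given cells more easily. It therefore does not tell how rare the C3 pattern is. Total counts of the 6 C1q cells, at 767318 to 4059833, and of the 10 C3 cells, at 827611 to 3526674, overlapped over most of their range.

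**Figure D3:**
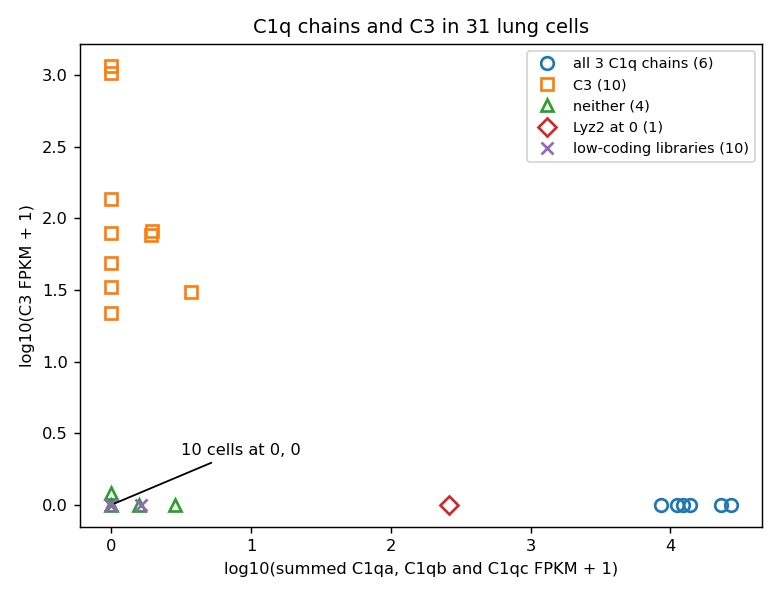
Summed FPKM of the 3 C1q chains (x axis) against C3 FPKM (y axis), both as log10(FPKM + 1), 1 point per cell with 10 points at 0, 0. The 6 C1q cells lie along the x axis and the 10 C3 cells along the y axis, with no cell high in both.

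Cell type markers divided along the same line, which earlier results of these cells had already shown. Of 10 interstitial macrophage genes without C1q, the C1q cells held 3 to 8 each, at a summed 4415 to 59743 FPKM, and the C3 cells 0 to 3 each, at a summed 0 to 4015 FPKM. Mrc1 was present in 5 of 6 C1q cells and 0 of 10 C3 cells, as was the platelet factor gene Pf4, whereas the apolipoprotein gene Apoe was present in 6 of 6 and 8 of 10. Lyve1 and Cd163 of that list were in no Lyz2-high cell. Of 8 classical monocyte genes, the C1q cells held 1 to 3 each, at a summed 2.02 to 811 FPKM, and the C3 cells 5 to 8 each, at a summed 9496 to 25098 FPKM. Ly6c2, Plac8 and Vcan were in 0 of 6 C1q cells and in 8, 10 and 6 of 10 C3 cells. The part of these cell type differences in the C1q and C3 pattern was not tested. The epithelial genes Sftpc, Sftpb, Epcam, Scgb1a1 and Cdh1 and the fibroblast genes Col1a1, Col1a2, Col3a1, Pdgfra and Dcn had 0 FPKM in all 16 of these cells, which were sorted as CD45+.

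The other marker lists gave smaller or mixed differences. None of 7 alveolar macrophage genes, among them Siglecf, Marco and Pparg, was present in a Lyz2-high cell. Nonclassical monocyte genes were found at 1 to 3 of 6 per C1q cell and 0 to 5 of 6 per C3 cell, but single genes of that list divided the sets in opposite directions. Cx3cr1, which encodes the fractalkine receptor, was present in 6 of 6 C1q cells and 1 of 10 C3 cells, and the integrin gene Itgal in 0 of 6 and 8 of 10. Dendritic cell genes summed to at most 0.34 FPKM in a C1q cell and 1.08 FPKM in a C3 cell, and endothelial genes to at most 0.68 and 1.12 FPKM. B cell genes summed to up to 152 FPKM in 1 C1q cell and at most 0.53 FPKM in a C3 cell, and T or NK cell genes to 0 in both. Neutrophil genes summed to 0 to 191 FPKM in C1q cells and 5.2 to 1768 FPKM in C3 cells. Ly6g was present in 6 of 10 C3 cells against 0 of 6 C1q cells, and S100a8 in 3 against 0. Cxcr2 was present in 6 of 10 against 1 of 6, and Csf3r in 6 of 10 against 2 of 6. S100a9, Retnlg, Ltf and Lcn2 were in none of either.

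The receptor genes differed in how widely they were found. C5ar1 (ENSMUSG00000049130; chromosome 7, 16246743 to 16259540, minus strand), which encodes the receptor through which C5a draws in and activates myeloid cells, was the most widely found member. Of the 31 cells 16 held it (51.6%, 33.1 to 69.8%), and of the 20 Lyz2-high cells 13 (65.0%, 40.8 to 84.6%), at 2.04 to 337 FPKM with a median of 86.7 FPKM in those 13. It crossed the divide between C1q and C3: 5 of 6 C1q cells held it, at 0 to 337 FPKM with a median of 67.3 FPKM over the 6, and 8 of 10 C3 cells, at 0 to 290 FPKM with a median of 62.0 FPKM over the 10. The ranges of the 2 sets overlapped almost fully. Of the 4 Lyz2-high cells with neither, B9, C8, D4 and D6, none reached 1 FPKM, and D4 had 0.77 FPKM from 3 counts. H8 was the C1q cell without it. In the low-coding library D10, C5ar1 was at 334 FPKM from 354 counts.

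C3ar1 (ENSMUSG00000040552; chromosome 6, 122847138 to 122856161, minus strand), which encodes the receptor of the C3 fragment C3a, had the narrower spread, with 7 of the 31 cells (22.6%, 9.59 to 41.1%), 6 of them Lyz2-high. The highest values were 656 FPKM in B4 and 465 FPKM in H5, both C1q cells. The C1q cells H8 and F1 followed far below with 18.9 and 7.79 FPKM, and C6 and C7 had none. Of the 10 C3 cells 1 held it, E12 with 70.5 FPKM, and of the 4 with neither, D6 with 11.1 FPKM. F11 had 173 FPKM. C3 and the receptor for its fragment were thus found together in 1 of the 20 cells, where independence would give 3, and C1qa and C3ar1 in 4, where it would give 1.8. C3ar1 and C5ar1 were found together in 4 of the 20, against 3.9.

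**Figure D4:**
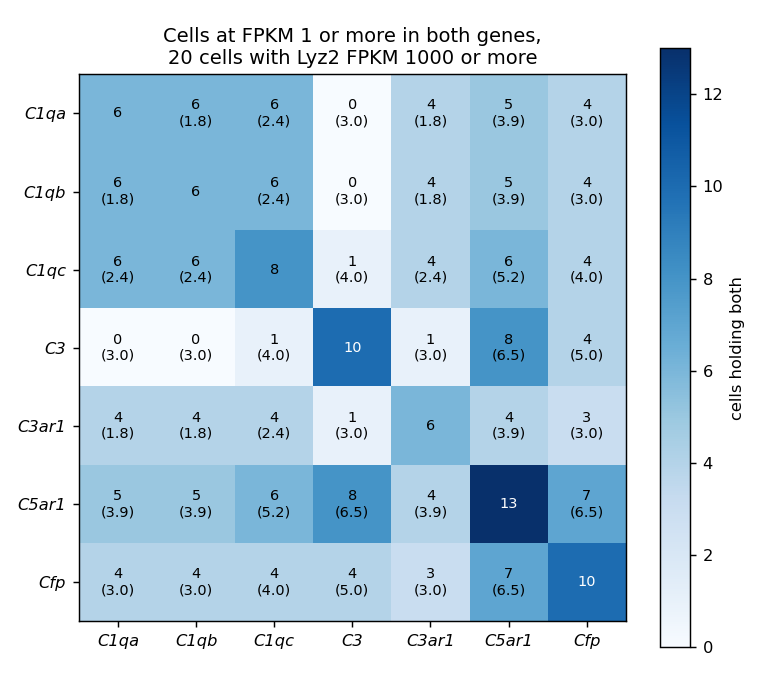
Number of the 20 Lyz2-high cells in which both genes of a row and column were present, with the number expected from the 2 genes' own counts in parentheses; the diagonal gives each gene's own count. C1q chains share 6 cells, C1qa and C1qb share 0 with C3, and C5ar1 and Cfp stay near the expected numbers.

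Properdin and factor B belong to the alternative pathway. Cfp (ENSMUSG00000001128; chromosome X, 20925454 to 20931555, minus strand) was found in 11 of the 31 (35.5%, 19.2 to 54.6%), 10 of them Lyz2-high, at 1.90 to 457 FPKM with a median of 66.0 FPKM in those 10. H5 held the most, followed by C11 with 251 FPKM and D6 with 228 FPKM, which are 1 C1q cell, 1 C3 cell and 1 cell with neither. Of the C1q cells 4 of 6 held it, at 36.5, 95.6, 140 and 457 FPKM. Of the C3 cells 4 of 10 held it, and after C11 these were B7 at 21.95 FPKM, H4 at 3.52 FPKM from 18 counts and A6 at 1.90 FPKM from 3 counts. The 10 cells with C3 and the 10 with Cfp shared 4, where independence would give 5, and C5ar1 and Cfp shared 7, against 6.5. These pairs therefore lay close to what the single counts give.

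Cfb (ENSMUSG00000090231; chromosome 17, 34856374 to 34862518, minus strand) had 0 FPKM in each of the 31 cells, which allows a share of cells of up to 9.68%, or up to 15% from the 20. The overlapping genes Gm20547 and Mir6972 also had 0 counts over the 31 cells. No cell held all 8 or 7 members. The most was 6, in F1 and H5, both C1q cells, and of the 20 Lyz2-high cells 1, D4, held none.

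Of the 28 pairs of members, 19 were found together in at least 1 of the 20 cells, and 7 of the other 9 were pairs with Cfb. The pairs C1qa with C3 and C1qb with C3 made up the rest.

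The rest of the pathway was examined as a fixed list of 42 other complement genes. Of these, 15 were present in at least 1 of the 31 cells, where 32.8% of all genes and 51.5% of protein-coding genes were. In at least 1 of the 20 cells 9 were present, where 39.6% of protein-coding genes were. Their median was 0 of the 20 cells, as for all genes. Of the 42, 6 were present in low-coding libraries and in none of the 20, where 9.57% of all genes and 11.5% of protein-coding genes were. None of the components that act directly after C1q was present at more than a trace. C1ra, C1rb, C1s1, C1s2, C4a and C4b were in no cell, and C2 was at 1.68 FPKM in C7 alone. Of the lectin pathway, Masp1, Masp2, Mbl1, Mbl2, Fcna, Fcnb, Colec10 and Colec11 were in no cell, and Colec12, a scavenger receptor with a collectin-like domain, was in 5 of the 20 at 1.19 to 22.6 FPKM. Factor D (Cfd) was in no cell. Of the terminal components, Hc, which encodes C5, and C6, C7, C8a, C8b, C8g and C9 were in none of the 20. C4a and C4b, C1ra and C1rb, C1s1 and C1s2, and Cd59a and Cd59b are near copies between which reads can be divided uncertainly.

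Regulators limit complement on host cells. Cr1l, whose product Crry blocks C3 cleavage on rodent cells, was present in 1 of 6 C1q cells, 3 of 10 C3 cells and 1 of 4 with neither, and was highest in A12 with 623 FPKM. Cd59b, which encodes an inhibitor of the membrane attack complex, was in 2 of 6 and 2 of 10. Cfi, C4bp, Cd55, Cd46, Cd59a, Serping1, Vtn and Clu were in none of the 20.

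Of the other receptors, Itgam and Itgb2, which encode the chains of complement receptor 3, were each present in 14 of the 20 cells. Itgam was in 3 of 6 C1q cells and 7 of 10 C3 cells, at up to 191 FPKM, and Itgb2 in 4 of 6 and 6 of 10, at up to 880 FPKM. Itgax, which encodes the alpha chain of complement receptor 4, was in 2 of 6 C1q cells (B4 and C7), 0 of 10 C3 cells and, at 1025 FPKM, in D4. Cd93, a surface glycoprotein once proposed as a C1q receptor, was in 0 of 6 C1q cells and 4 of 10 C3 cells, and in 2 of the 4 with neither. C5ar2, Vsig4 and Cr2 were in none of the 20.

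**Figure D5:**
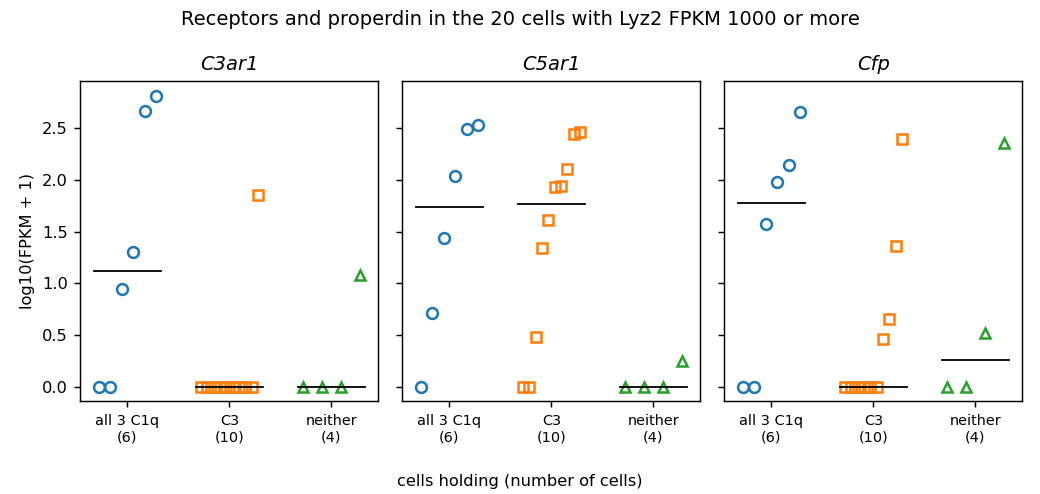
log10(FPKM + 1) of C3ar1, C5ar1 and Cfp in the 20 Lyz2-high cells, 1 point per cell, in the 6 cells with all 3 C1q chains, the 10 with C3 and the 4 with neither; bars are medians. C5ar1 spans both C1q and C3 cells, while C3ar1 is in 4 C1q cells and 1 C3 cell.

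The genes whose levels were most like those of the members over the 20 cells were sought among the 3664 genes, by Pearson's r on log2(FPKM + 1). For the mean of the 3 C1q chains these were Cd81 (r = 0.991), which encodes a tetraspanin, the lectin gene Mgl2 (0.939), the transcription factor gene Egr1 (0.919), Tmem176a (0.888) and Cd72 (0.888). Cd81 and Mgl2 were present in the 6 C1q cells and in no other of the 20. For C3 they were the chitinase-like gene Chil3 (0.789), Mgst1 (0.777), which encodes a membrane glutathione transferase, haptoglobin (Hp, 0.748), Plac8 (0.745) and S100a4 (0.707), each present in 10 of 10 C3 cells, and Mgst1, Hp and Plac8 in 0 of 6 C1q cells. With levels this bimodal, r mostly reflects which cells held a gene. The cells also differ in depth, and r is given with no p.

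For the other members no gene came as close as Cd81 to C1q. Those nearest to C3ar1 were Ddost (0.781), Tacc1 (0.766), Uty (0.756), Erap1 (0.742) and Ifi35 (0.729). Those nearest to C5ar1 were Nras (0.710), Sh3glb1 (0.651), Srp72 (0.636), Gm44777 (0.634) and Gm4419 (0.626). Those nearest to Cfp were Cd84 (0.832), Cnpy2 (0.807), Pdia6 (0.801), Cd63 (0.779) and Dse (0.777). These lists depend on the settings: none of the 5 genes nearest to C3 stayed among its 5 nearest with a pseudocount of 10, and none of the 5 nearest to C3ar1 when genes present in 3 or more cells were admitted.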

How the data were processed

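Single cells were captured with the Fluidigm C1 system, their polyadenylated RNA was amplified with SMARTer chemistry, and libraries were made with Nextera XT, per the labels' protocols; this kit does not mark the strand. CASAVA 1.8, Trimmomatic, RSEM and build GRCm38 are named in the submitters' processing notes; no aligner or annotation release is given in the sources used here. Deposited values were RSEM expected counts (estimated counts that need not be whole) and FPKM values, which scale counts to transcript length and library size; no molecular identifiers were used. Of 75 columns of counts, 44 had names of no sample here and were left out. Of 47069 genes, 46488 matched a symbol. Types and coordinates (1-based) come from GENCODE M21 on the same build. No 2 libraries were identical. No doublet caller was run.

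Presence meant FPKM 1 or more. Share intervals are exact Clopper-Pearson 95% intervals, and 0 cells allows up to 3 cells of the total. The numbers of cells expected to hold both genes of a pair are the products of their counts over the number of cells. The FPKM that 3 counts would give was scaled from a cell holding the gene. Likeness used log2(FPKM + 1) and genes with a symbol in at least 5 cells, without mitochondrial genes. It was also tested on simulated cells, with a target that was either on or off. The members' levels are graded, so that test does not tell how reliable the 5 genes named per target are. The genes named are the 8 members, the other complement genes by role, the 5 genes most like each target, the marker lists and the sort genes; some genes of these lists are not reported here. The members, lists and rules were chosen with earlier results of these data known. The dividing line of 80% of counts on nuclear protein-coding genes comes from those results. Alternatives were FPKM minimums of 5 and 50, expected counts of 10 or more, cells thinned to 120829 counts, no low-coding libraries, Lyz2 minimums of 100 and 5000 FPKM, pseudocounts of 0.1 and 10, and genes in at least 3 cells. Python 3.11.15, pandas 2.3.3, numpy 2.4.6 and scipy 1.17.1 were used.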

Additional observations from a re-analysis of the deposited data

How the results depend on the processing

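At FPKM minimums of 5 and 50 and at 10 or more expected counts, 0 cells held any C1q chain and C3, both over all 31 and over the Lyz2-high cells, where 1 did at 1 FPKM; after thinning it was again 1, then B7 with a single read of C1qc. At 50 FPKM, C3 was present in 6 cells over all 31 and over the Lyz2-high cells in place of 10, C5ar1 in 8 Lyz2-high cells in place of 13, and other complement genes numbered 9 in place of 15. That minimum also gave C5ar1 in 10, Cfp in 6 and C3ar1 in 4 of the 31 cells and C3 with C3ar1 in 0. Of the 25 nearest genes 12 were kept with a pseudocount of 10. The remaining counts stayed within 1.5 times, among them the 6 cells with all 3 chains, and all 3 chains with C3 stayed at 0 in each setting. Thinned counts were not run for the other complement genes. With 31 cells of 1 group and no animal named, shares rest on few cells and no difference could be tested. No paired analysis was possible because the cells form 1 group.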

Other observations

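Of the 42 other complement genes, 6 were present in at least 1 of the 10 low-coding libraries and in none of the 20 Lyz2-high cells. The same held for 9.57% of all genes and 11.5% of protein-coding genes. Colec12, a scavenger receptor with a collectin-like domain, was present in 10 of the 10, at 6.26 to 66.2 FPKM, and in 5 of the 20 Lyz2-high cells. The 6 genes were C6 (3 libraries, 6.20 to 17.1 FPKM), C5ar2 (3 libraries, 2.50 to 6.44 FPKM), Cfi (27.5 and 42.0 FPKM), Cd59a (49.7 and 681 FPKM), C8a (1.65 FPKM) and C4bp (2.85 FPKM). The same libraries also held markers of unrelated lineages: Ms4a1, Pecam1 and Cxcr2 were each present in 10 of the 10, and Xcr1 and Csf3r in 9. They had a median of 3278 genes at 1 FPKM or more, against 2415 in the Lyz2-high cells. These libraries summed to 120835 to 1592301 expected counts, against 521492 to 4059833 in the Lyz2-high cells, and the part of depth and of library quality in these counts was not tested.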
